A study of Schizosaccharomyces pombe with 3 samples.

Results

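*dcr1*, *tas3* and *cid14* are fission yeast genes whose products act in RNA-dependent gene silencing and nuclear RNA decay. RNA at these genes was measured here in cells with a truncated nuclear exonuclease Dhp1 or without its partner Din1. These genes were chosen by name among the 36 silencing factors listed with the study, with earlier results of these data known. Together they were read by 41 of the 174063 numbered probes of the tiling array. The mutants were *dhp1-1* (strain p1088, 2 arrays) and *din1Δ* (strain p1044, 1 array), and each array held the mutant RNA in Cy5 and wildtype RNA in Cy3. The wildtype was strain p1087 on both *dhp1-1* arrays and strain p344 on the *din1Δ* array, so a difference between the wildtype strains is part of every difference between the mutants. All cultures were *Schizosaccharomyces pombe* in log phase in rich medium (YEA) at 30°C, and rRNA was depleted before reverse transcription.

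*dhp1-1* is a temperature-sensitive allele of the essential gene *dhp1*, in which the end of the coding region is replaced by *ura4*+. According to the strain list, p1088 also carries *ura4*+ at the outer repeats of centromere 1 and *ade6*+ at the mating type locus. The genotypes of p1044, p1087 and p344 are used here only as far as the sample labels give them. Dhp1, the fission yeast homolog of Rat1 and Xrn2, degrades RNA from its 5′ end and acts in transcription termination, and Din1 is its partner of the Rai1 family. Neither *dhp1* nor *din1* is among the genes whose probes were located, so the mutations were not checked at the genes themselves. In the reference gene order *din1* follows *red1*, the last placed gene of chromosome I, and among the 2194 probes after *red1* the lowest log2 ratio on the *din1Δ* array was -4.04, at probe 172457, where the *dhp1-1* arrays had -0.53 and -0.47. The gene that this probe reads is not identified here.

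The RNAi pathway of fission yeast turns transcripts of the centromeric repeats into small RNAs that lead silencing proteins back to the repeats. Dcr1, the only Dicer of this yeast, cuts double-stranded RNA into those small RNAs. Tas3 bridges Ago1 and the chromodomain protein Chp1 within the RITS effector complex. Cid14 is the noncanonical poly(A) polymerase of TRAMP, the complex that adds short tails to nuclear RNAs and hands them to the exosome, which degrades RNA from the 3′ end.

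The probes of each gene were found as the run of every other probe whose mean in the deposited table equals the gene's listed values for *dhp1-1* replicate 1 and *din1Δ*. The listed values served for nothing else, and *dhp1-1* replicate 2 took no part in the placement. *dcr1* was placed on chromosome III at 9 probes, numbered 147789 to 147805, and *tas3* on chromosome II at 28 probes, numbered 38348 to 38402. *cid14* was placed on chromosome I at 4 probes, numbered 152864 to 152870. Odd and even numbers were taken as opposite strands, and which of them matched the minus strand varied along the array. Of the minus-strand genes placed, 3 were odd and 3 even on chromosome III, 1 odd and 7 even on chromosome II, and 6 odd and 1, *cid14*, even on chromosome I. All 36 genes were placed, and all 33 pairs of neighbouring genes followed the gene order of the reference annotation. In the reference annotation the genes *spn6*, at *dcr1*, and *pfs2* and *gms2*, at *cid14*, overlap the members, as do noncoding RNA genes at all 3, and a probe in an overlap can read either gene where both lie on its strand. Sequences and positions of the probes are not used here.

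For *dcr1* and *tas3*, which their locus tags put on the minus strand, the 4 nearest placed genes of the chromosome all followed the same relation of parity to strand. For *cid14*, which its locus tag also puts on the minus strand, 0 of the 4 nearest placed genes did. The plus-strand genes placed on chromosome I were 5 even and 0 odd, so the numbering puts the 4 even *cid14* probes on the strand opposite its locus tag. The relation of parity to strand varied elsewhere on the array. It was the same, however, for all other genes placed on chromosome I and for *dcr1* and *grc3*, the genes placed before *cid14*. By the numbering, the ratios of this run are therefore not those of the *cid14* transcript. Probe positions were not used to check this. Below, *cid14* names only this run, and opposite *cid14* names the other strand, which the numbering makes that of the locus tag. A second run, shifted by 1 probe of the same strand, matched the *cid14* values as well, and it shares 3 of the 4 probes.

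More probes detected wildtype RNA on the strand of the run than on the opposite strand at each gene. On the strand of the run, 7 of 9 *dcr1* probes, 25 of 28 *tas3* probes and 4 of 4 *cid14* probes had a detectable wildtype signal, above background, on all 3 arrays. On the opposite strand this held for 1 of 8 probes at *dcr1*, 5 of 27 at *tas3* and 1 of 3 at *cid14*. At *tas3*, the stretch of detected probes ended within 1 probe of both ends of the run, beside probes that were not above background on any array.

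**Figure D1:**
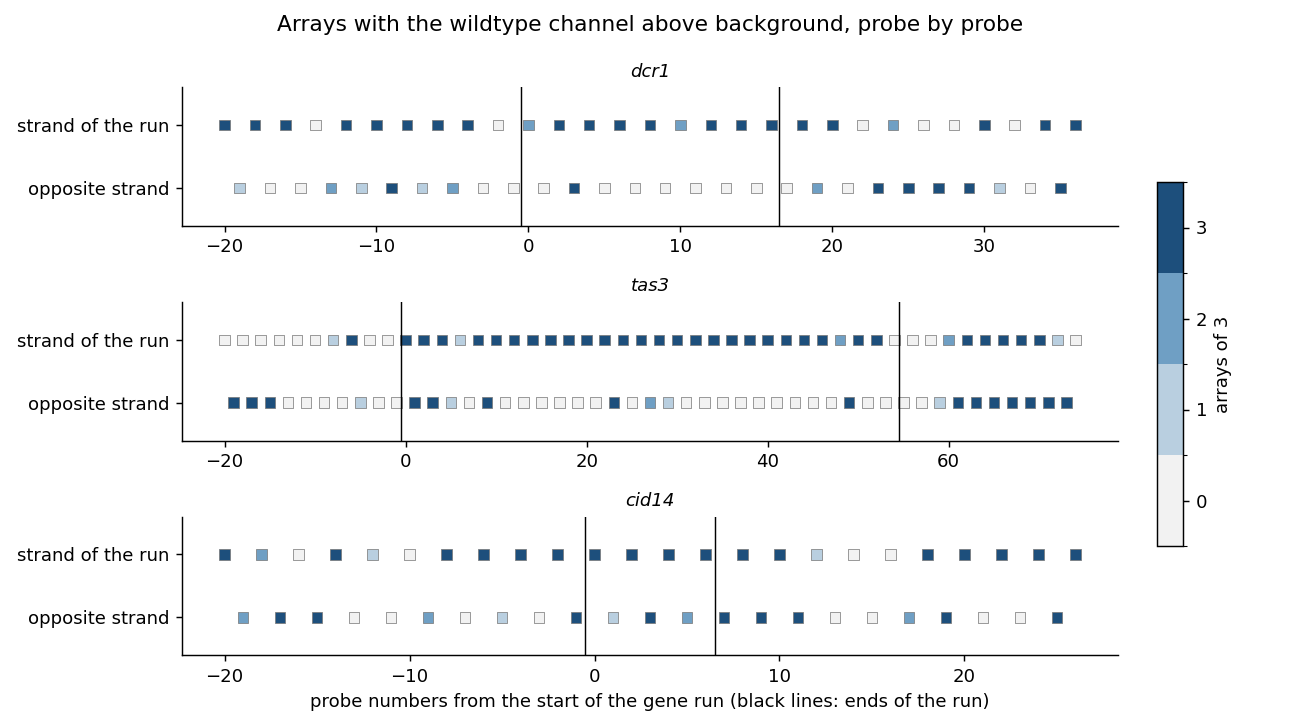
Each square is 1 probe of the strand of the run or of the opposite strand, placed by its probe number from the start of the run, with 10 probes beyond each end; the colour gives on how many of the 3 arrays its wildtype channel was above background. *dcr1* and *tas3* run from 5′ to 3′, *cid14* by probe number. The run of *tas3* has 25 of 28 probes detected on all 3 arrays, against 5 of 27 on its opposite strand.

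Over all numbered probes, the mutant channel was above background at 84.3%, 71.0% and 66.1% on *dhp1-1* replicate 1, *dhp1-1* replicate 2 and *din1Δ*, and the wildtype channel at 71.7%, 67.3% and 67.2%. No spot was saturated, and 476, 1529 and 816 outlying spots were left out, none of them at a probe of the 3 gene runs. Probes with 6 spots each had a median SD of 0.13, 0.15 and 0.13 in log2 ratio over their spots on those arrays. *dhp1-1* replicate 1 and *din1Δ* shared a slide. Each ratio is relative to the whole array, so a change in the total RNA of a cell would not be seen. With 2 *dhp1-1* arrays and 1 *din1Δ* array, the number of arrays limits the precision.

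In *dhp1-1*, the transcripts of both RNAi genes fell, *tas3* to 0.759 and *dcr1* to 0.795 of the wildtype signal. The *cid14* run had a ratio of 1.09 that did not pass the test. The log2 ratio is log2(mutant/wildtype), the mean over all probes in the run. It was tested against 0 with limma among 8846 features, which are mainly tiles of 20 probes of 1 strand. Of the 3 genes, 2 were called lower at an adjusted p under 0.05, against 10.5% of all features. As the genes were chosen with earlier results of these data known, this count is a description only. Wildtype cells gave signal above background on all arrays at 15 or more of the 20 probes in 3683 tiles, of which 17.3% were called lower. None of the 3 genes passed 1.6-fold, a log2 change of 0.678, in *dhp1-1* or *din1Δ* under the main processing. Of all 36 listed genes, 0 passed it on the *dhp1-1* mean and 1 in *din1Δ*, so this does not set the 3 genes apart. In *din1Δ*, 1.81% of all features passed it, and the share in *dhp1-1* was not counted. With the ratio of the scanner software *tas3* passed 1.6-fold in *dhp1-1*, at a mean log2 ratio of -0.72.

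The product of *dcr1* is Dicer. Its mean log2 signal was 8.75 in *dhp1-1* and 9.03 in wildtype on the first array, and 8.23 in *dhp1-1* and 8.62 in wildtype on the second. The mutant was thus lower on each array. The *dhp1-1* signal of the first array lay above the wildtype signal of the second, but signals were not scaled between arrays. The log2 ratios were -0.27 and -0.39, with a mean of -0.33 ± 0.0802 (SD, n = 2), and limma gave an SE of 0.0894 and an adjusted p of 0.0060. On the *din1Δ* array *dcr1* had a log2 signal of 8.87 in *din1Δ* and 8.96 in wildtype, or a log2 ratio of -0.087.

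The *dcr1* probes did not vary in the same way in the replicates. In replicate 1, 7 of 9 probes lay below 0, with values between -0.65 and 0.34, and in replicate 2 all 9 did, between -0.69 and -0.13. The ratios of the 9 probes had a Pearson correlation of -0.015 between the replicates. Probes of 1 gene share the same RNA, so this correlation is a description across probes. Over 3 parts of the run from 5′ to 3′, with 3 probes each, the means were -0.40, -0.46 and 0.044 in replicate 1 and -0.36, -0.34 and -0.46 in replicate 2. The part nearest the 3′ end was therefore where the replicates differed most. In *din1Δ* these parts had means of -0.010, -0.47 and 0.22, and single probes ran from -0.78 to 0.55.

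*tas3*, which encodes the bridging subunit of RITS, had the lowest *dhp1-1* ratio of the 3 genes, below that of *dcr1* by less than the SD of its replicates. Its mean log2 signal was 8.44 in *dhp1-1* and 8.75 in wildtype on the first array, and 8.29 in *dhp1-1* and 8.77 in wildtype on the second. The mutant was lower on each array, and signals of different arrays are not compared. The log2 ratios were -0.32 and -0.48, with a mean of -0.40 ± 0.114 (SD, n = 2), an SE of 0.0902 and an adjusted p of 0.0013 by limma. On the *din1Δ* array the log2 signal was 8.71 in *din1Δ* and 8.68 in wildtype, or a log2 ratio of 0.030.

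The lower signal in *dhp1-1* ran along the whole *tas3* run. The ratio was below 0 at 25 of 28 probes in replicate 1 and at 27 of 28 in replicate 2, and at 25 of 28 it was below 0 in both. The means of 3 parts from 5′ to 3′, with 10, 9 and 9 probes, were -0.45, -0.21 and -0.28 in replicate 1 and -0.56, -0.55 and -0.31 in replicate 2. Across the 28 probes, Pearson's r was 0.61 between replicates 1 and 2 of *dhp1-1* and -0.097 between replicate 1 and *din1Δ*. The probes of an array share its wildtype RNA, and both *dhp1-1* arrays used the same wildtype strain.

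The mean of *tas3* near 0 in *din1Δ* was made of probes on both sides of 0. There were 15 probes below 0 and 13 above, from -0.60 to 0.94, and 3 probes were above 1.6-fold. Above 0 were 4 of the 10 probes nearest the 5′ end, 2 of the 9 in the middle and 7 of the 9 nearest the 3′ end, where the mean was 0.22. At 20 of 28 probes both *dhp1-1* ratios were below that of *din1Δ*. The same held at 4 of 9 probes of *dcr1* and at 3 of 4 of the *cid14* run. All these probes share the 1 *din1Δ* array, so the counts are a description only.

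**Figure D2:**
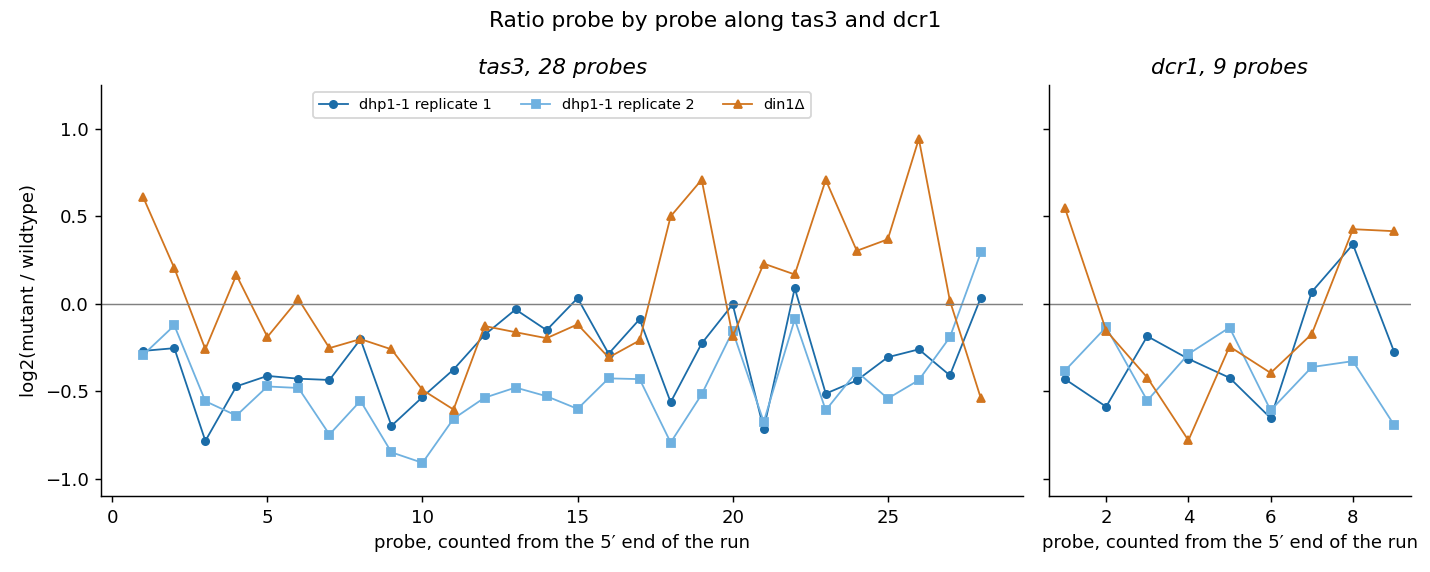
Each point is the log2(mutant/wildtype) ratio of 1 probe, counted from the 5′ end of the run, for *tas3* (28 probes, left) and *dcr1* (9 probes, right), with a line for each of the 3 arrays. In *dhp1-1* 25 of 28 *tas3* probes lie below 0 on both arrays, whereas *din1Δ* is above 0 at 7 of the last 9.

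The run placed at *cid14*, the TRAMP polymerase gene, had a mean ratio in *dhp1-1* smaller than the spread of its replicates. Its mean log2 signal was 12.50 in *dhp1-1* and 12.21 in wildtype on the first array, and 11.99 in *dhp1-1* and 12.01 in wildtype on the second. The log2 ratios were 0.29 and -0.026, on either side of 0, with a mean of 0.13 ± 0.222 (SD, n = 2) and an adjusted p of 0.327 by limma. The 95% interval of the mean, from -0.064 to 0.32, holds 0.

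In *din1Δ*, the *cid14* run had the highest ratio of the 3 gene runs. Its log2 signal was 12.42 in *din1Δ* and 11.93 in wildtype, or a log2 ratio of 0.49 (1.41-fold), with no replicate and no test. By this ratio the *cid14* run was 5th from the top among the runs of the 36 listed genes, *tas3* 20th and *dcr1* 24th. Past 1.6-fold either way on that array lay 1.81% of the 8846 features, and *cid14* was not among them. The 4 *cid14* probes had ratios of -0.040, 0.71, 0.83 and 0.48 in *din1Δ*, so the probe with the lowest number stood apart from the other 3. That probe had ratios of 0.29 and 0.046 in *dhp1-1*, where the 4 probes ran from 0.17 to 0.37 in replicate 1 and from -0.19 to 0.15 in replicate 2. Over the 3 probes that both matching runs share, *din1Δ* had a mean of 0.67.

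**Figure D3:**
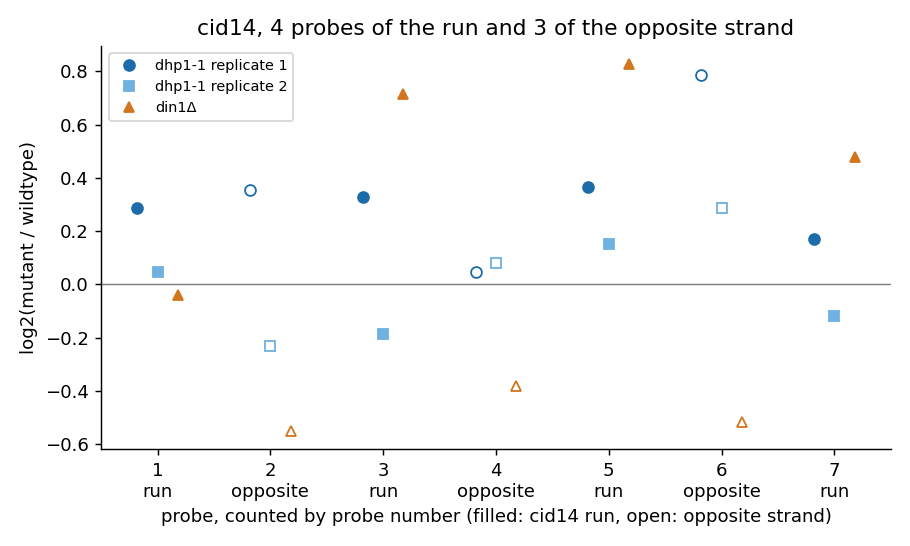
Each point is the log2(mutant/wildtype) ratio of 1 probe on 1 array, for the 4 probes of the *cid14* run (filled) and the 3 probes of the opposite strand between them (open), in the order of the probe numbers. In *din1Δ* 3 of the 4 probes of the run lie above 0.4 and the 3 opposite probes below 0.

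The difference between the mutants was tested within the same fit. It was -0.24 for *dcr1* (adjusted p = 0.352, 95% interval -0.56 to 0.076), -0.43 for *tas3* (adjusted p = 0.0708, -0.75 to -0.11) and -0.36 for *cid14* (adjusted p = 0.154, -0.70 to -0.029), as *dhp1-1* minus *din1Δ* by limma. The sign was the same for all 3 gene runs, which share the 1 *din1Δ* array. Of the 3, 0 passed the threshold, against 13.8% of all features called in either direction. Over the alternatives the difference ran from -0.46 to -0.13 for *dcr1* and from -0.80 to -0.29 for *tas3*, and it was never called. The fall of *dcr1* and *tas3* in *dhp1-1* is therefore not shown to differ from *din1Δ*.

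The opposite strand was not called in *dhp1-1* at any of the 3 genes. The mean log2 ratio there was -0.053 for *dcr1* (adjusted p = 0.709) and 0.0017 for *tas3* (adjusted p = 0.992) by limma, over probes most of which were not above background. Opposite *cid14* the ratios were 0.40 and 0.045 in *dhp1-1* (mean 0.22, adjusted p = 0.0858). In *din1Δ* all 3 probes opposite *cid14* lay below 0, with a mean of -0.48, a measured signal 1.40-fold lower than wildtype. None was above background in the mutant channel, so the size of this difference is not known. Of these 3 probes, 1, 3 and 2 were above background in the wildtype channels of *dhp1-1* replicate 1, *dhp1-1* replicate 2 and *din1Δ*. Neither flank of the 3 genes, with 10 probes of the same strand on each side, was called in *dhp1-1*, where the means lay between -0.075 and 0.10. The methods name a high-resolution part of the array, so 10 probes need not span the same length at each gene.

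Of the 6 listed RNAi genes, *dcr1* and *tas3* were called lower in *dhp1-1*, against 10.5% of all features, and the other 4 were called in neither direction. *ago1*, the Argonaute bound by Tas3, had a mean log2 ratio of -0.011 in *dhp1-1*. *chp1*, the chromodomain subunit of RITS, had -0.082 (0.086 at the last of its 3 matching runs), and *rdp1*, the RNA-dependent RNA polymerase, had -0.0079. *stc1*, which links RITS to the histone methyltransferase complex, had 0.014 and -0.30 in the *dhp1-1* arrays and 0.35 in *din1Δ*. The difference between the mutants was called for *stc1* alone among the 9 genes of both groups (-0.49, adjusted p = 0.0455 by limma), against 13.8% of all features, and it was not called under any of the 8 other processings tested. The 6 RNAi genes had a median of -0.11, beside -0.11 for all 36 listed genes, of which 9 were called lower and 2 higher, against 10.5% and 18.9% of all features.

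Among the genes of TRAMP and the exosome, *rrp6*, the 3′-to-5′ exonuclease of the nuclear exosome, rose in *dhp1-1*. *air1* and the *cid14* run, which the numbering puts opposite its locus tag, were not called. *rrp6* had log2 ratios of 0.38 and 0.17 in *dhp1-1* (mean 0.27 ± 0.147 SD, n = 2, adjusted p = 0.0243 by limma) and 0.0017 in *din1Δ*, against 18.9% of all features called higher, and it was called under 4 of 9 other processings. *air1*, the zinc knuckle subunit of TRAMP, had 0.20 and -0.20 in *dhp1-1* and 0.078 in *din1Δ*. Thus 1 of 3 genes was called higher and 0 lower. Under the main processing, 0 of the 9 genes of both groups passed 1.6-fold on the *dhp1-1* mean or in *din1Δ*. Of the 36 listed genes, 0 and 1 did, and in *din1Δ* 1.81% of all features did.

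**Figure D4:**
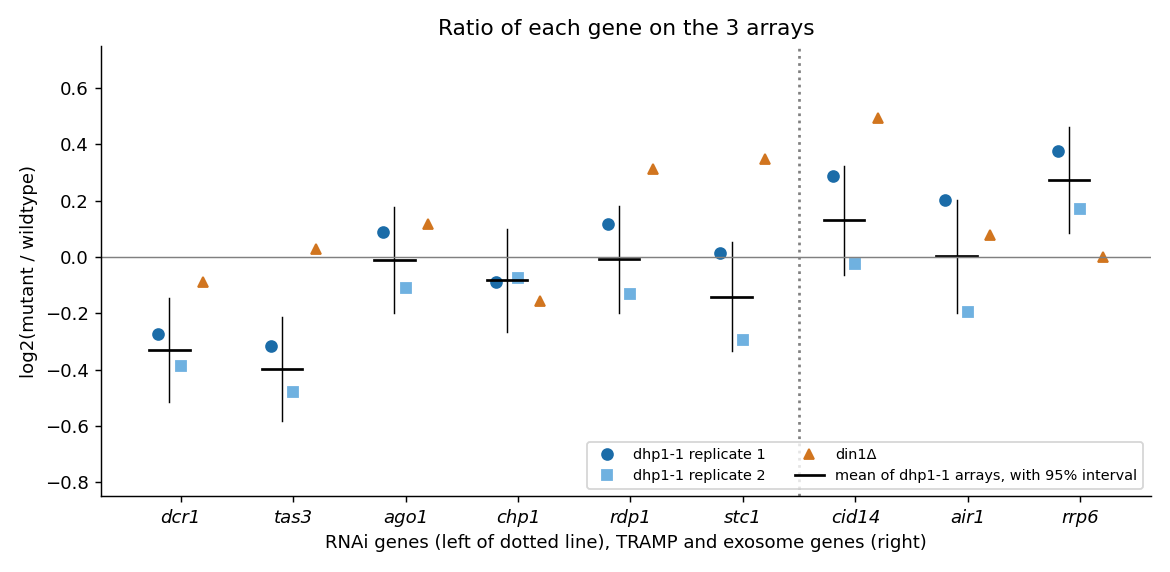
Each symbol is the log2(mutant/wildtype) ratio of a gene on 1 array, for the 6 RNAi genes and the 3 genes of TRAMP and the exosome; the bar is the mean of the 2 *dhp1-1* arrays and the thin line its 95% interval from limma. The intervals of *dcr1* and *tas3* lie below 0 and that of *rrp6* above it.

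Replicate 2 of *dhp1-1* lay below replicate 1 for all 3 genes, for 8 of the 9 genes of both groups and for 30 of the 36 listed genes. It also lay below replicate 1 in 65.2% of the 3683 tiles with wildtype signal, and the median of replicate 2 minus replicate 1 there was -0.072 on the log2 scale. The part of this shift in the results was not tested. *dcr1* and *tas3* were below 0 in both replicates, whereas *cid14*, *ago1*, *rdp1*, *stc1* and *air1* changed sign between them.

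By distance over the log2 ratios of the 3 arrays, the listed genes most like *dcr1* were *grc3* (distance 0.116) and *tas3* (0.154), out of 35. Those most like *tas3* were *dcr1* and *clr3* (0.236). *grc3* had ratios of -0.17, -0.34 and -0.091, and *clr3*, a histone deacetylase of the SHREC complex, -0.40, -0.51 and -0.19. For the *cid14* run they were *ipi1* (0.0696), with 0.27, -0.019 and 0.56, and *rix1* (0.227), with 0.11, -0.17 and 0.54. The values are in the order *dhp1-1* replicate 1, *dhp1-1* replicate 2 and *din1Δ*.

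The direction of *dcr1* and *tas3* in *dhp1-1* was negative under every processing tried, and the size and the call were not stable. With median centring in place of loess the mean was -0.19 for *dcr1* (adjusted p = 0.357) and -0.27 for *tas3* (adjusted p = 0.139) by limma, so neither was called. With the ratio of the scanner software it was -0.53 and -0.72, both were called, and *tas3* passed 1.6-fold.

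**Figure D5:**
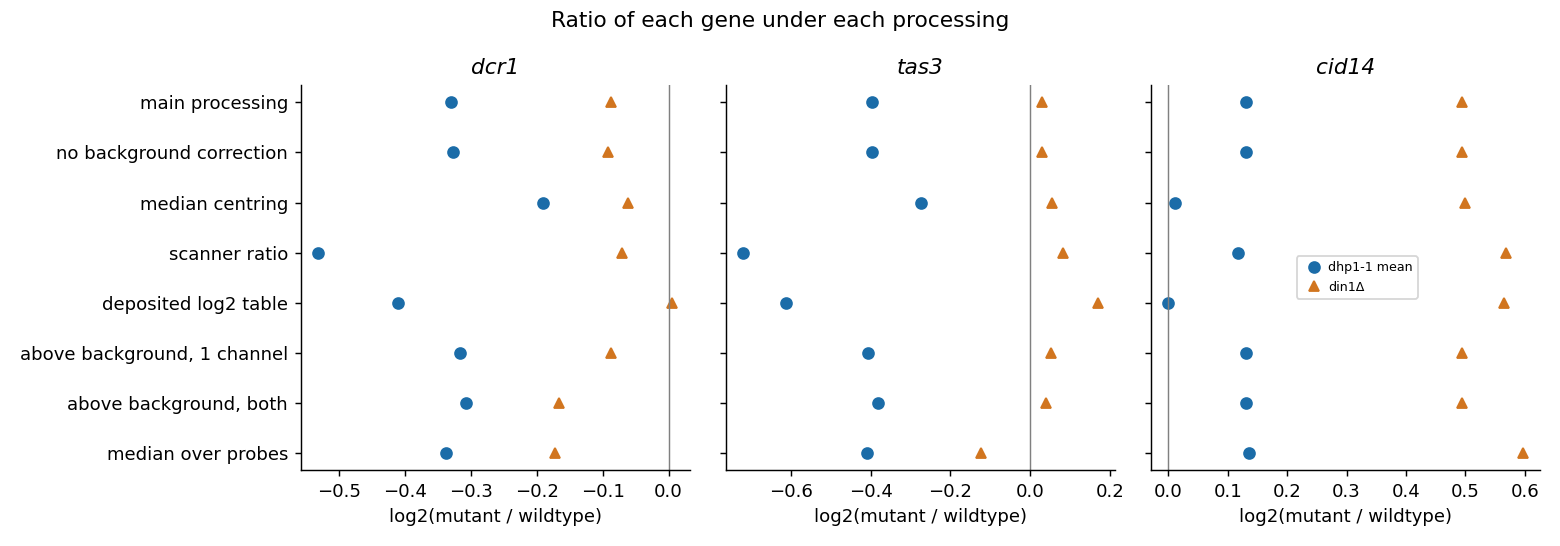
Each point is the log2(mutant/wildtype) ratio of a gene under the processing named on the left, as the mean of 2 arrays for *dhp1-1* and as 1 array for *din1Δ*. The *dhp1-1* mean of *dcr1* runs from -0.53 to -0.19 and that of *tas3* from -0.72 to -0.27. In the deposited table, which holds 0 where the scanner p-value did not pass, *cid14* lies at 0.00 in *dhp1-1* and at 0.56 in *din1Δ*.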

How the data were processed

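An Agilent 2-colour tiling array was hybridised with mutant RNA (2 arrays of *dhp1-1*, 1 of *din1Δ*) against wildtype RNA. The authors extracted spots with Agilent Feature Extraction 10.7.3.1, named in the submitters' processing notes. The authors deposited median spot and background intensity values without normalization, the scanner log10 ratio with its p-value, spot flags, and a log2 table that holds the scanner ratio, with 0 at p-values of 0.05 or more. In total, 3 columns of that table were used and 0 were left out.

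Median intensities were background-corrected (normexp, offset 50) and loess-normalized in limma 3.58.1 (R 4.3.3), and ratios averaged over 8702 tiles and 144 gene features. Tests used lmFit and eBayes, and p-values were adjusted by Benjamini-Hochberg over all 8846 features. Tables were made in Python 3.11.15 (pandas 2.3.3, numpy 2.4.6). The steps were tested on simulated data. Genes were placed within 1e-08, and where several runs matched, as for 10 of 36 genes, the first was used. The 36 symbols were found in the ASM294v3 gene table, used for names and order only. Genes named were the members, the other RNAi and TRAMP or exosome genes, and the 2 nearest listed genes of each member. Members and lists were chosen with earlier results of these data known. The methods name biological duplicates of wildtype and *dhp1-1* for the genome-wide analysis, beside the account of another assay. The labels do not say whether these arrays came from separate cultures or shared wildtype RNA, so part of the spread behind the p-values may be technical. Alternatives were other background correction, centring, probe filters, averages, tile sizes, runs, and arrays left out.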

Additional observations from a re-analysis of the deposited data

Results flagged for a closer look

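The difference between the mutants, *dhp1-1* minus *din1Δ*, passed the test of limma for *stc1* and, by measured signals, for the strand opposite *cid14*. For *stc1* it was -0.49 (adjusted p = 0.0455), with ratios of 0.014 and -0.30 in *dhp1-1* and 0.35 in *din1Δ*. It was not called under any of the 8 other processings, where adjusted p ran from 0.0528 to 0.422. For the 3 probes opposite *cid14* the measured difference was 0.70 (adjusted p = 0.0049 by limma), with ratios of 0.40 and 0.045 in *dhp1-1* and -0.48 in *din1Δ*. None of these probes was above background in the *din1Δ* channel. The value of -0.48 thus rests on undetected signals that the test took as exact, and the p of that test is not read as a call here. The difference was 1.66 with the scanner ratio and 1.10 in the deposited table, and 0.53 to 0.88 with 1 *dhp1-1* array left out, and adjusted p ran from 0.0102 to 0.387 over 7 other processings. Both differences rest on 1 *din1Δ* array. No group had enough arrays to look for an outlying one.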

How the results depend on the processing

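Replicate numbers do not pair *dhp1-1* with *din1Δ*, and the only link between them is the slide shared by *dhp1-1* replicate 1 and *din1Δ*. *dcr1* in *dhp1-1* lost its call with median centring (-0.19), in the deposited table (-0.41, adjusted p = 0.0967) and where both channels had to exceed background (-0.31, adjusted p = 0.0782), and *tas3* with median centring (-0.27) and in the deposited table (-0.61, adjusted p = 0.141), all by limma. In *din1Δ*, *tas3* was 0.17 in the deposited table and -0.12 as the median over probes. Of the 9 pathway genes 3 were called, beside 29.4% of all features. With median centring 0 were (1 at an unadjusted p under 0.05), beside 19.4%. In the deposited values 0 were (2 at an unadjusted p under 0.05), beside 0.147%. With both channels above background 1 was, *tas3*, beside 21.7%. With the scanner ratio and with a filter on 1 channel, *dcr1* and *tas3* were called and *rrp6* was not. Leaving out a *dhp1-1* array leaves no spread to test: *cid14* ran from -0.026 to 0.29, its opposite strand from 0.045 to 0.40, and its difference between the mutants from -0.52 to -0.21. With the slide as a block, which compares *dhp1-1* replicate 1 with *din1Δ* alone, that difference was -0.21. The difference between the mutants was -0.80 for *tas3* and -0.46 for *dcr1* with the scanner ratio. The cause of these changes was not tested. With so few arrays limma takes most of each variance from the other features, the dyes were not swapped, and dim probes understate ratios.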
